A study of Glycine max with 30 samples.

Results

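Gene expression in leaves of the soybean cultivar Jack was compared with that of the cultivar Mustang in plants that carried no transgene. The 15 non-transgenic libraries, of 30 in all, were chosen by their labels. The 3 Jack libraries came from non-transgenic plants of the family made with an RNA interference (RNAi) construct against NRPD1. The 12 Mustang libraries came from 2 families, 6 from non-transgenic plants of the NRP(D/E)2-RNAi family and 6 from non-transgenic plants of the NRPE1-RNAi family. The other 15 libraries came from transgenic plants of these families, 3, 6 and 6 respectively. Each library was made from poly(A) RNA of mature leaf. Every Jack library belonged to 1 RNAi family, so cultivar and family cannot be told apart in Jack, and the labels give no sowing, harvest or sequencing batch. The labels describe related plants but do not say whether each replicate was a separate plant, so p-values measure the spread between libraries.

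NRPD1 is the largest subunit of RNA polymerase IV and NRPE1 that of RNA polymerase V, 2 plant polymerases that act in RNA-directed DNA methylation, and NRP(D/E)2 is a subunit that both share. Soybean is a self-pollinating crop, and its cultivars are inbred lines that differ from each other in sequence and in gene copy number. Jack is a cultivar widely used for soybean transformation.

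The deposited counts held 55589 gene identifiers, of which 33839 passed the filter on low counts in the 15 non-transgenic libraries. Total counts ran from 12461936 to 13036316 in Jack and from 11172345 to 17961262 in Mustang. Jack and Mustang totals were not separated by an exact, two-sided permutation test (p = 0.154, adjusted p = 0.154 over 3 library measures). None of the identifiers could be paired with a gene name, so the genes targeted by the constructs, leaf markers, markers of other tissues and pathway lists were not analysed here. In whole leaves, fewer cells of a type and less RNA per cell cannot be told apart.

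About as many genes were higher as lower in Jack, and together they made up over 50% of the genes tested. Against the mean of both Mustang families, edgeR's quasi-likelihood test called 17382 of 33839 genes at an adjusted p under 0.05, which is 51.4%. Of these, 9250 (27.3% of the genes tested) were higher and 8132 (24%) lower in Jack. The median log2 fold change was 1.47 among the genes called higher and -1.23 among those called lower. The difference was at least 2-fold for 11319 called genes (33.4%), at least 4-fold for 5573 (16.5%) and at least 16-fold for 1718 (5.08%). The split into higher and lower calls depended on the scaling of the libraries. With trimmed-mean (TMM) scaling, 53.2% of calls were higher in Jack, and the median log2 fold change of the genes tested was -0.03. With scaling to total counts, 21822 genes were called, 25.5% of them higher in Jack, and the median log2 fold change was -0.57. All 8132 genes called lower under TMM were also called lower with total counts, whereas 5575 of the 9250 called higher were also called higher. The TMM factors were 0.769, 0.666 and 0.793 in Jack and lay between 0.965 and 1.2 in Mustang, with no overlap.

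The Jack libraries were separate from both Mustang families on the main axis of variation. The first principal component of log2 CPM (counts per 1000000, TMM-scaled) carried 47.8% of the variance. Jack libraries scored 212.1, 216.6 and 232.5 on it, the NRP(D/E)2 family between -119.2 and -83.45, and the NRPE1 family between -46 and 41.12. The groups did not overlap on this component, and the NRPE1 family lay between Jack and the NRP(D/E)2 family. The second component, with 24.3% of the variance, separated the Mustang families from each other, and Jack lay within the range of the NRP(D/E)2 family or just under it. Spearman's rho between single libraries across the 33839 genes was 0.941 to 0.98 within Jack, 0.925 to 0.975 within the NRP(D/E)2 family and 0.845 to 0.98 within the NRPE1 family. It was 0.693 to 0.768 between Jack and the NRP(D/E)2 family, 0.696 to 0.883 between Jack and the NRPE1 family, and 0.799 to 0.886 between the Mustang families. These values describe genes measured in shared libraries, and genes are not independent replicates. The highest value between Jack and the NRPE1 family exceeded the lowest within the NRPE1 family. NRPE1-family replicate 5 was the Mustang library nearest to Jack, with rho values of 0.806 to 0.883 to the 3 Jack libraries.

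**Figure D1:**
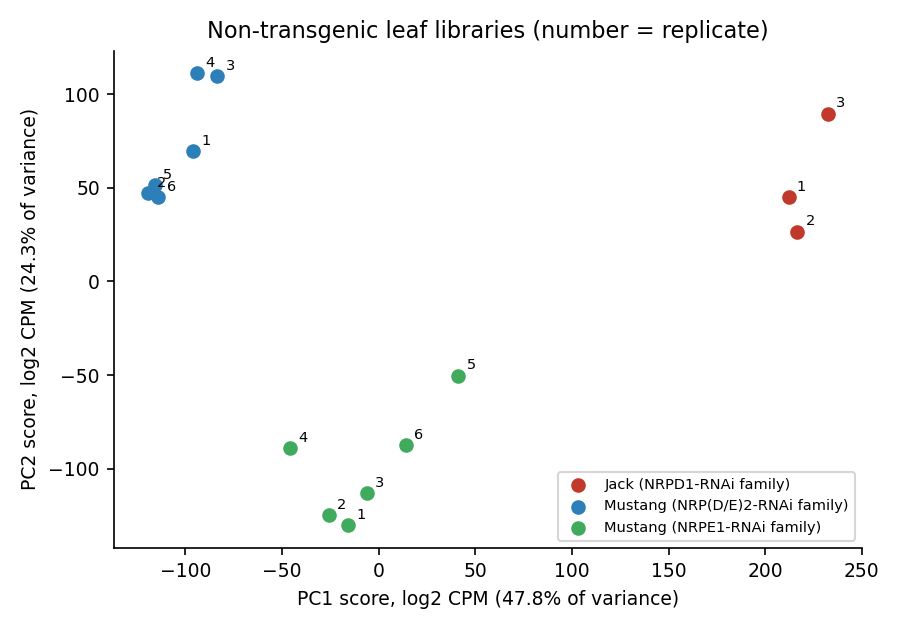
Scores of the 15 non-transgenic libraries on the first (x) and second (y) principal component of log2 CPM, 1 point per library, coloured by group and numbered by replicate. The 3 Jack libraries lie at 212.1 to 232.5 on the first component, to the right of every Mustang library.

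The comparison with each Mustang family shared the Jack libraries, and more genes were called against the NRP(D/E)2 family than against the NRPE1 family. Against the NRP(D/E)2 family, edgeR called 18061 genes (53.4%), 9428 higher (27.9%) and 8633 lower (25.5%) in Jack. Against the NRPE1 family it called 14739 genes (43.6%), 7680 higher (22.7%) and 7059 lower (20.9%). The Mustang families differed from each other in 13066 genes (38.6%), with 6690 (19.8%) higher and 6376 (18.8%) lower in the NRPE1 family, as the measured difference between 2 families of 1 cultivar. With total-count scaling, 25.3% of the calls against the NRP(D/E)2 family, 25.4% of those against the NRPE1 family and 34.7% of those between the families were higher. The median absolute log2 fold change over the genes tested was 0.811 against the NRP(D/E)2 family, 0.638 against the NRPE1 family and 0.485 between the Mustang families. Calls of at least 2-fold numbered 12772 (37.7%), 9886 (29.2%) and 7207 (21.3%) in that order, and calls of at least 4-fold 6813 (20.1%), 5053 (14.9%) and 2769 (8.18%). Calls of at least 16-fold numbered 2226 (6.58%), 1677 (4.96%) and 499 (1.47%) in the same order. The Jack comparisons set 3 libraries against 6 and the Mustang comparison 6 against 6. With replicates 1 to 3 of each group, an alternative added after seeing the data, the counts were 18048, 15023 and 12434.

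Genes that differed from both Mustang families in the same direction numbered 10836, or 32% of the genes tested. Jack was higher than each family in 5773 of them (17.1%) and lower than each in 5063 (15%). With total-count scaling the numbers were 3288 and 11820. Of the 17382 genes called against the Mustang mean, 62.3% were in this class, 4407 (25.4%) were called against the NRP(D/E)2 family but not the NRPE1 family, and 2010 (11.6%) the other way round. The remaining 129 comprised 109 called against neither family alone and 20 called against both in opposite directions. In all, 215 genes, which include these 20, were called in opposite directions against the 2 families, with Jack lying between them. Within the class of 10836, Jack lay farther from each Mustang family than the families lay from each other in 9407 genes (86.8%). The class was chosen by calls of Jack against each family in the same libraries, so the choice itself favours a high share. The share over the genes tested is not reported here. The Mustang families were themselves called different in 3679 of the 10836 (34%), which compares with 38.6% of the genes tested. Of the genes tested, 9990 were called in none of the 3 pairwise comparisons, and 2100 were called between the Mustang families alone.

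The ranges of the libraries in TMM-scaled CPM gave a similar division without a test. The numbers in this paragraph rest on the same libraries and scaling as the calls above. Their split under total-count scaling is not reported here. In 9203 genes (27.2%) the 3 Jack libraries did not overlap the 12 Mustang libraries, with Jack higher in 5169 (15.3%) and lower in 4034 (11.9%). Of the 10836 genes that differed from both families, 8540 (78.8%) had no overlap. Large differences, of at least 4-fold against each Mustang family and called the same way against each, were found in 3477 genes (10.3%), 1996 higher (5.9%) and 1481 lower (4.38%) in Jack. When the 3 group means of each gene were put in order, the NRPE1 family was in the middle for 48.3% of the genes tested, the NRP(D/E)2 family for 31.9% and Jack for 19.8%. Among the 17382 called genes these shares were 63.1%, 34.4% and 2.44%, but a call against the mean itself leaves little room for Jack in the middle.

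Abundant transcripts differed from the others in the direction of the change. Among the 1607 genes above 100 CPM over the 3 groups, 1092 (68%) were called, and 847 of those calls (77.6%) were higher in Jack. The share called was 40.2% under 1 CPM, 51.4% from 1 to 10 CPM and 51.7% from 10 to 100 CPM, with 52.8%, 51.8% and 51.2% of the calls higher in Jack. With total-count scaling, 53.9% of the calls above 100 CPM were higher in Jack, against 32.7%, 28.3% and 19.6% in the lower classes in rising order of abundance. Between the Mustang families, 27.6%, 36.1%, 41.4% and 52% of the genes of these classes were called, in rising order of abundance. CPM is not corrected for transcript length, so a class of abundance is not a class of molecules per cell.

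**Figure D2:**
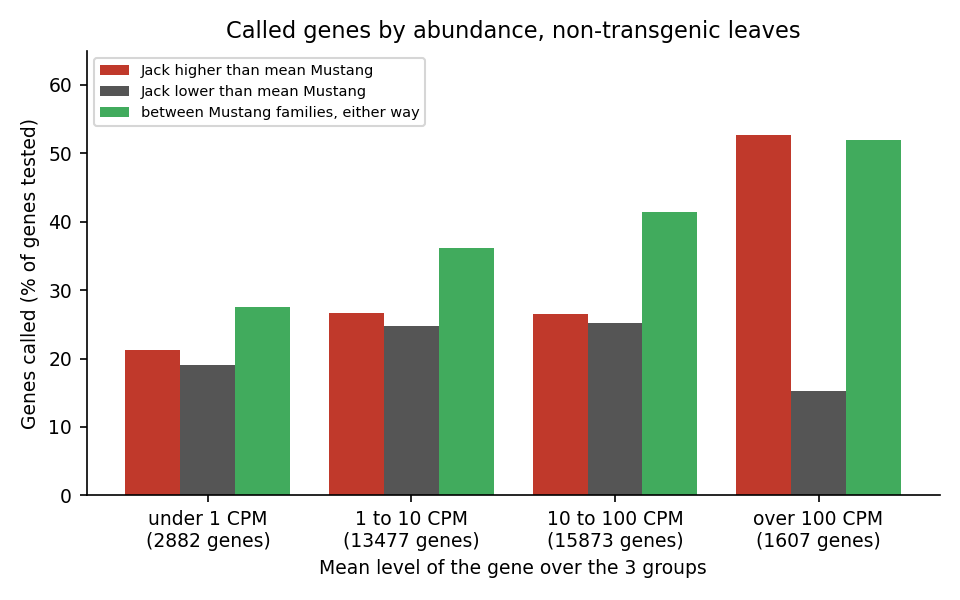
Percentage of tested genes called by edgeR (y) in 4 classes of mean CPM (x), for genes higher in Jack, genes lower in Jack and genes called between the Mustang families in either direction. Above 100 CPM the bar for higher in Jack stands over that for lower, with 847 against 245 genes.

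The most abundant transcripts also took a larger part of the counts in Jack. Within each library, the 10 genes with the most counts took 7.6%, 9.02% and 7.02% of the counts in the 3 Jack libraries. In the Mustang libraries their share ran from 3.25% to 4.99%. The mean was 7.88% ± 1.03 (SD, n = 3) in Jack and 4.15% ± 0.537 (SD, n = 12) in Mustang, with no overlap. A two-sided exact permutation test gave p = 0.0044, the smallest that 455 regroupings allow, and an adjusted p of 0.0132 over 3 library measures. The test took libraries as units and left out that the Mustang libraries came from 2 families and the Jack libraries from 1. The 10 genes with the highest mean CPM in each group were compared separately. Of these 10, Jack shared 6 with the Mustang mean, 7 with the NRPE1 family and 1 with the NRP(D/E)2 family. The Mustang families shared 2 with each other.

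The 100 genes most abundant in Jack took 24.9% ± 2.18 (SD, n = 3) of the counts there and 10.1% ± 3.01 (SD, n = 12) in Mustang, but the Jack libraries had chosen them. In the transgenic libraries, which had no part in the choice, the same 100 genes took 22.2% of the counts in Jack, from 16.7% to 25.1%. They took 9.54% in transgenic Mustang libraries, from 4.53% to 19.6%, so the ranges overlapped. Without the 2 transgenic libraries described below, the ranges were 24.9% to 25.1% in Jack and 4.53% to 13.5% in Mustang, with no overlap. Those 2 libraries were picked for departing from the cultivar pattern of non-transgenic leaves, which itself favours a separation. The number of genes detected when every library was thinned to 11172345 counts was 38652 ± 822 (SD, n = 3) in Jack and 37889 ± 625 (SD, n = 12) in Mustang. That difference did not pass an exact permutation test (p = 0.0835, adjusted p = 0.125). Counting a gene as detected from 5 counts, the difference was 31 genes (exact permutation p = 0.976).

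The transgenic plants of the same families gave a second reading of the cultivar difference in libraries that had no part in the first. In them Jack carried the NRPD1-RNAi construct and Mustang the NRP(D/E)2-RNAi or the NRPE1-RNAi construct, so construct and cultivar cannot be told apart there. One library in each cultivar stood apart, as read on genes detected in 1 cultivar of the non-transgenic plants and near 0 in the other. Genes with at least 0.5 CPM in each of the 3 Jack libraries and a mean under 0.1 CPM in Mustang numbered 561, and genes with the opposite pattern numbered 93. Transgenic Jack replicates 1 and 2 held 522 and 535 of the 561 genes at 0.5 CPM or more, and 0 and 5 of the 93. The library labelled transgenic Jack replicate 3 held 279 of the 561 (49.7%) and 28 of the 93 (30.1%). The library labelled transgenic NRPE1 replicate 1 held 272 of the 561 (48.5%) with 88 of the 93, whereas the other transgenic Mustang libraries held 11 to 71 of the 561. Each of these 2 libraries departed from its group on part of these genes. The 88 of the 93 in transgenic NRPE1 replicate 1 lay within the 86 to 92 of the other transgenic Mustang libraries. Whether the labels are correct was not tested. The transgenic summaries are therefore given with and without them, a choice made after seeing the data.

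**Figure D3:**
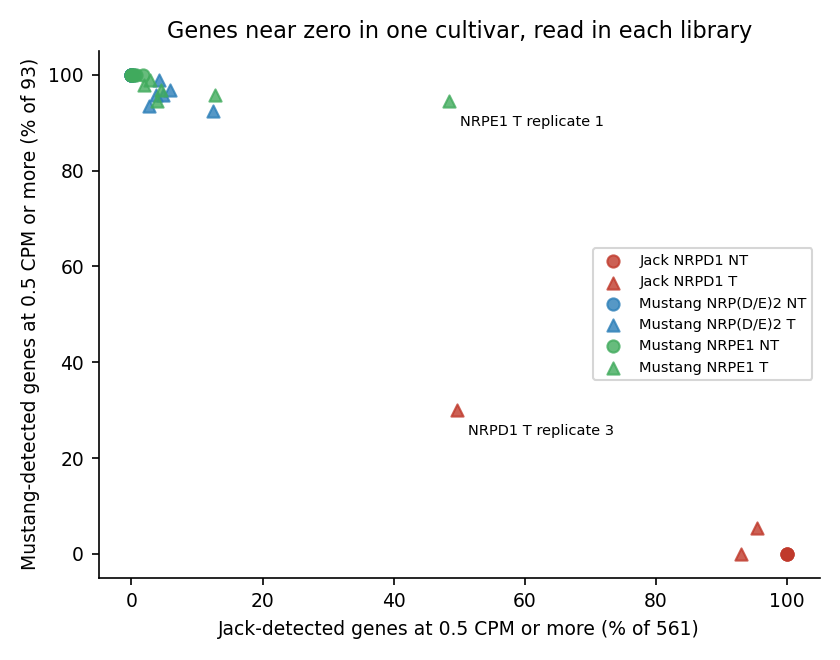
Each of the 30 libraries by the percentage of the 561 Jack-detected genes (x) and of the 93 Mustang-detected genes (y) at 0.5 CPM or more, coloured by family, with non-transgenic and transgenic libraries as different symbols. Non-transgenic libraries sit in 2 corners because they chose the genes. Transgenic Jack replicate 3 (49.7% and 30.1%) and transgenic NRPE1 replicate 1 (48.5% on the x axis) lie apart from their groups.

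The direction of the cultivar difference was mostly shared between non-transgenic and transgenic leaves. The transgenic contrast called 17945 of 35084 genes (51.1%), 9366 higher (26.7%) and 8579 lower (24.5%) in Jack. Calls of at least 2-fold numbered 10655 (30.4%), of at least 4-fold 4812 (13.7%) and of at least 16-fold 1130 (3.22%). With total-count scaling, 26.2% of the transgenic calls were higher in Jack. Across the 33416 genes tested in both contrasts, Pearson's r between the log2 fold changes was 0.88 and Spearman's rho 0.895. The contrasts share the 3 families but no library. Of 17177 genes called in non-transgenic leaves and tested in transgenic leaves, 98% had the same sign, 76.9% were also called in the same direction and 36 were called in the opposite one. Over all 33416 genes, 87.9% had the same sign and 50.6% were called with that sign in transgenic leaves. Among the 5643 genes higher than each Mustang family, 87.8% were called higher again, and among the 5030 lower than each family, 81.3% were called lower again. Of the 16239 genes not called in non-transgenic leaves, 77.2% had the same sign and 22.7% were called in the same direction.

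Leaving out the 2 libraries that stood apart, a choice that itself favours agreement with the non-transgenic leaves, raised these shares. The transgenic contrast then called 20949 of 35917 genes, and r was 0.916 over 33588 genes. Of the genes called in non-transgenic leaves, 98.4% had the same sign and 84.8% were called in the same direction. Among the genes tested in both contrasts, whether called in non-transgenic leaves or not, 88.3% had the same sign, against 87.9% with the 2 libraries. The share of them called with the same sign in transgenic leaves rose as well, from 50.6% to 57.9%. Among genes not called in non-transgenic leaves it rose from 22.7% to 29.4%. The shares called in the same direction were 92.3% for genes higher than each Mustang family and 92.1% for genes lower than each. The difference between the transgenic and the non-transgenic contrast was tested as an interaction over the 30 libraries. It was called for 139 of 36186 genes (0.384%), 82 (0.227%) with a higher Jack-minus-Mustang value in transgenic leaves and 57 (0.158%) with a lower one. In 83 of the 139 the sign of the cultivar difference itself changed. The interaction had an unadjusted p under 0.05 in 2869 genes. Without the 2 libraries that stood apart it was called in 151 genes, 93 of them among the 139. Without non-transgenic Jack replicate 1 it was called in 57 genes, 27 higher and 30 lower, and without non-transgenic Jack replicate 2 in 67, 26 higher and 41 lower, so the more frequent direction turned. DESeq2 called 384 genes.

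**Figure D4:**
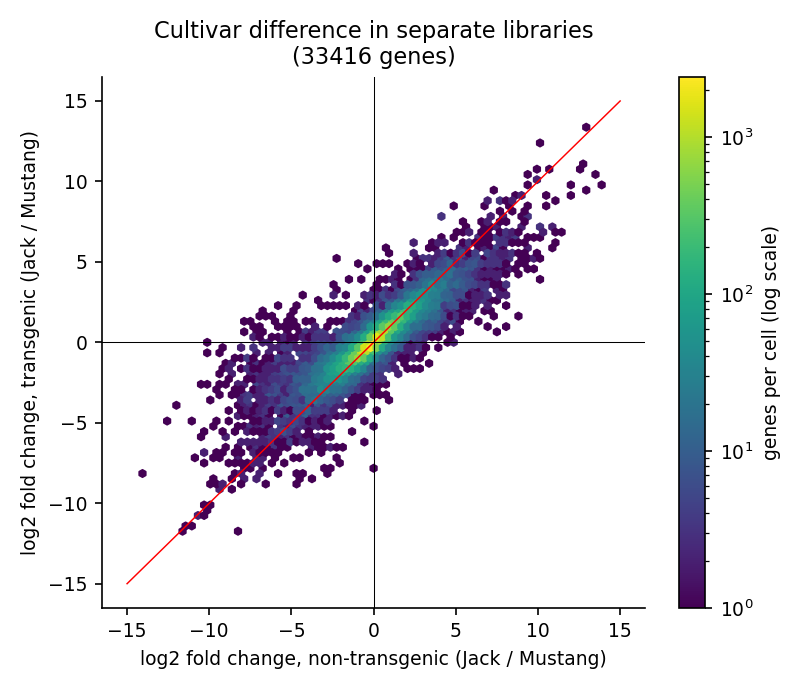
Log2 fold change of Jack over Mustang in non-transgenic leaves (x) and in transgenic leaves (y) for the 33416 genes tested in both, shaded by the number of genes per cell on a log scale. Most genes lie along the rising diagonal, with Pearson's r of 0.88.

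A pair of genes in each direction shows the largest differences, ordered by fold among genes of at least 5 CPM that differed from both families without overlap. They were chosen by their non-transgenic values, which are given as a description, and the transgenic values had no part in the choice. Glyma.18G103500, on chromosome 18 by its identifier, had 133, 127 and 121 CPM in the 3 Jack libraries and no count in the 12 Mustang libraries. Its mean of 127 CPM ± 6.02 (SD, n = 3) was at least 8182-fold above the floor of 3 counts over the Mustang group. The Jack values lay close together and far above Mustang. In transgenic leaves it had 85.5, 112 and 66.7 CPM in Jack and 0 to 0.389 CPM in Mustang. The groups did not overlap there either (edgeR adjusted p = 1.97e-09).

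Glyma.03G252700, on chromosome 3 by its identifier, varied more among Jack libraries. It had 146, 11.9 and 325 CPM in Jack and 1 count in all 12 Mustang libraries together. The ratio of the means was 26900, with a 95% counting interval of 5560 to 1220000 that covers counting error alone. Jack replicate 2 was the lowest and still far above the highest Mustang library at 0.0718 CPM. In transgenic leaves it had 167, 147 and 0.159 CPM in Jack, against a highest Mustang value of 1.32 CPM in NRPE1 replicate 1. Transgenic Jack replicate 3 thus lay within the Mustang range, and the outlying values came from the 2 libraries named above as standing apart (edgeR adjusted p = 6.19e-06 over the 15 libraries).

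Glyma.11G093100, on chromosome 11 by its identifier, had no count in the 3 Jack libraries. In Mustang it had 24.6 CPM at the lowest, 143 at the median and 292 at the highest, a mean of 149 CPM ± 84 (SD, n = 12). Mustang was at least 1411-fold above the floor of 3 counts over the Jack group. The NRP(D/E)2 family averaged 199 CPM ± 70.8 (SD, n = 6) and the NRPE1 family 99.5 CPM ± 68.1 (SD, n = 6), and their libraries overlapped. In transgenic Jack it had 0, 0 and 1.19 CPM, the last in replicate 3, and in transgenic Mustang 31.7 to 359 CPM. The transgenic groups did not overlap (edgeR adjusted p = 1.77e-05).

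Glyma.06G307900, on chromosome 6 by its identifier, had no count in Jack either. Its lowest, median and highest Mustang values were 10.1, 47.5 and 167 CPM, with a mean of 58.9 CPM ± 48.6 (SD, n = 12). Mustang was at least 557-fold above the floor. Both families spread over a wide range, 13.2 to 77.4 CPM in the NRP(D/E)2 family and 10.1 to 167 CPM in the NRPE1 family. In transgenic leaves Jack had 0, 0 and 3.89 CPM, again with the count in replicate 3, and Mustang had 11.3 to 73.5 CPM. The transgenic groups did not overlap (edgeR adjusted p = 0.00118).

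**Figure D5:**
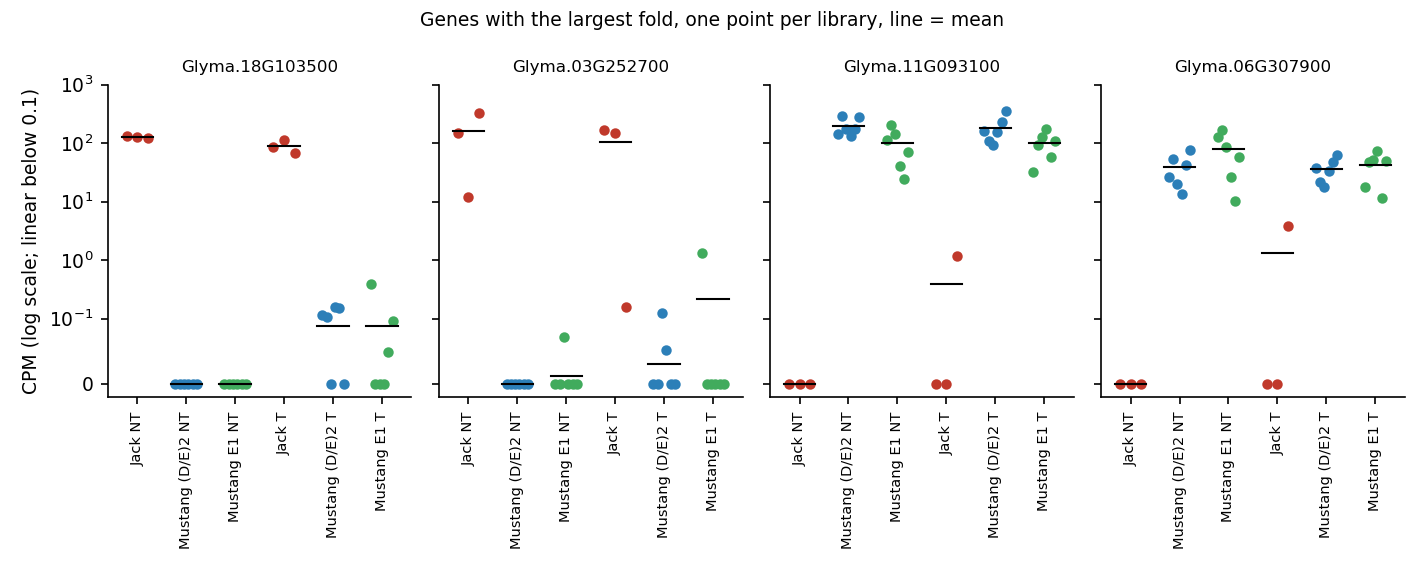
CPM (y, log scale, linear below 0.1) of the 4 genes in each library of the 6 groups (x), 1 point per library with a line at the group mean. In non-transgenic leaves, Glyma.18G103500 and Glyma.03G252700 are at or near 0 in Mustang, and Glyma.11G093100 and Glyma.06G307900 are at 0 in Jack.

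Detection in 1 cultivar, by the limits given above, held for 561 genes in Jack and 93 in Mustang, but it had to hold in 3 Jack libraries in one case and 12 Mustang libraries in the other. With total-count scaling the numbers were 386 and 128. The filter on low counts was passed by 287 of the 561 and by each of the 93. Of the 561, 67 were without a single count in the 12 Mustang libraries. Of the 93, 44 had no count in the 3 Jack libraries. Their median level in the cultivar that had them was 2.05 and 5.33 CPM. Against 1 Mustang family at a time, detection still had to hold in 3 libraries for Jack and in 6 for Mustang. The numbers were 814 and 209 for Jack and the NRP(D/E)2 family, the first detected in Jack. They were 554 and 170 for Jack and the NRPE1 family, in the same order. Between the Mustang families, with 6 libraries on each side, the numbers were 37 and 28, the first detected in the NRPE1 family. In transgenic leaves, 220 of the 561 and 79 of the 93 separated the cultivars without overlap, and 517 and 87 did so without the 2 libraries that stood apart. Those 2 libraries had been singled out on these same genes, so the choice itself favours the higher numbers. Over the 35084 genes tested in transgenic leaves, 8.69% were without overlap and higher in Jack and 11% without overlap and lower, and 24.2% and 25.2% without the 2 libraries. These shares cover genes that passed the filter on low counts, whereas the 561 and the 93 were chosen without it.

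The called genes were spread over the 20 chromosomes, read from the identifiers. The percentage called ran from 48.9% on chromosome 3 to 54.9% on chromosome 14. Differences of at least 4-fold against both families made up 8.32% of the genes tested on chromosome 17, the lowest share, and 14.1% on chromosome 16, the highest. Chromosome 16 held 184 such genes, of which 111 were lower and 73 higher in Jack, and on chromosome 20 lower genes also outnumbered higher ones, 79 to 63. On the other chromosomes the higher genes were the more numerous. These directions hold for TMM scaling, and the split by chromosome under total-count scaling is not reported here. By rank along the chromosome, such genes made up 10.5% of tested genes in the outer 40%, 10.2% in the middle 20% and 10.1% between them.

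Windows of 20 consecutive tested genes showed where large differences lay close together, a measure added after seeing the data. Positions are ranks among the identifiers of a chromosome, not coordinates. On chromosome 16, ranks 1707 to 1731 of 2223 held 14 genes of at least 4-fold among 20, 13 of them lower in Jack, with a median log2 fold change of -3.46. The mean log2(CPM + 1) of these 20 genes was 1.32, 1.62 and 1.79 in the Jack libraries and 2.01, 2.98 and 3.64 at the lowest, median and highest Mustang library. In transgenic leaves the median was -3.63. On chromosome 9, ranks 2187 to 2223 of 2865 held 11 such genes, with Jack higher in each of the 11, and a median log2 fold change of 2.8. Their mean log2(CPM + 1) was 1.81 to 2.36 in Jack and 0.74 to 1.2 in Mustang, and the transgenic median was 2.42. The windows were chosen on the non-transgenic values, which are given as a description. In transgenic leaves the window means of Jack and Mustang did not overlap on chromosome 16, with 1.55 to 2.35 in Jack and 3.36 to 4.31 in Mustang. They overlapped on chromosome 9, with 1.22 to 2.35 in Jack and 0.73 to 1.53 in Mustang. The next window in the same order, on chromosome 2 at ranks 41 to 75 of 3123, held 10 such genes that went both ways, 4 higher and 6 lower in Jack. Its window means were 2.6 to 2.67 in Jack, inside the Mustang range of 2.58 to 2.97. The window with the most called genes of any size, 19 of 20 on chromosome 9 at ranks 1484 to 1527, also went both ways, with 11 higher and 8 lower.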

How the data were processed

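Leaf poly(A) RNA was sequenced on an Illumina sequencer, per the labels' protocols. The authors deposited 1 table per library of raw read counts per gene identifier. The submitters' processing notes name FastQC 0.11.5, STAR 2.5.3a and edgeR without their roles, and the genome build, its cultivar, the annotation, the counter and its strand setting are not given in the sources used here. None of the 55589 identifiers matched the 59048 genes of the RefSeq table, so chromosomes were read from the identifiers, at most 2 genes were named in each direction, and planned marker and pathway lists were not used here.

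Counts were analysed in R 4.3.3 with edgeR 4.0.16: filterByExpr, TMM scaling, robust quasi-likelihood fits over the 3 groups and Benjamini-Hochberg adjustment over the genes tested, with 0.05 as the threshold. CPM were scaled by the TMM-adjusted library size. Named genes had the largest fold among those called against the mean and against each Mustang family, with at least 5 CPM in the higher cultivar and no overlap of libraries. Exact permutation tests used scipy 1.17.1, with libraries as units and no account of family. Intervals and floors cover counting error alone. No pair of replicates looked like 1 library deposited under 2 labels. Alternatives were other scalings and filters, DESeq2 1.42.0, limma 3.58.1 (voom), a fit over 30 libraries, a replicate block and leaving out each library. Members, lists and tests were chosen with earlier results of these data known.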

Additional observations from a re-analysis of the deposited data

Results flagged for a closer look

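In groups of 4 to 10 libraries, single libraries far from the rest of their group were sought. This was done in 21 sets of values, each 1 measure in 1 group. Dixon's test at its 95% critical values marked 5, where chance marks about 1 in 20 independent sets. The sets share libraries and some hold values near 0, so that rate is only a rough guide. Of the 5, 3 are the same library, transgenic NRPE1 replicate 1, read on genes detected in Jack. In the NRPE1 family, non-transgenic replicate 4 had 38673 genes detected at the common depth, and the next highest 38078. Among transgenic NRPE1 libraries, replicate 1 had the highest level of Glyma.18G103500, 0.389 CPM against 0.0956 in the next. The same library had the highest level of Glyma.03G252700, 1.32 CPM against 0 in the others. It also held 272 of the 561 genes detected in Jack and near 0 in Mustang, against 71 in the next library. In the transgenic NRP(D/E)2 group, replicate 3 held 70 of these 561 genes, against 33 in the next.

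The cultivar difference itself differed between transgenic and non-transgenic leaves in 139 genes by the interaction test of edgeR. Transgenic leaves of Jack and Mustang carried different constructs, and transgenic Jack replicate 3 and transgenic NRPE1 replicate 1 stood apart from their groups. Without those 2 libraries the interaction was called in 151 genes, of which 93 were among the 139. Their part in the result was not tested further.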

How the results depend on the processing

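Of 238 settings tried for the counts of calls and library measures, 227 stayed close to the main result. For a count this meant within 1.5 times the main count, and for a library measure the same direction and side of the threshold. Of the library measures, 0 reversed. For counts, the direction of the calls was not part of this comparison. With total-count scaling, the share of calls higher in Jack than the Mustang mean went from 53.2% to 25.5%. Leaving out 1 library gave 13834 to 18070 genes for Jack against the Mustang mean, 15589 to 19161 against the NRP(D/E)2 family, 10735 to 15003 against the NRPE1 family, 8056 to 11097 against both, 11306 to 14110 between the Mustang families and 12543 to 19997 in transgenic leaves. The lowest count of the first 4 came without Jack replicate 3. The interaction count was 384 with DESeq2 and 57 to 174 without 1 library, with 57, 67 and 82 without non-transgenic Jack replicate 1, non-transgenic Jack replicate 2 and transgenic Jack replicate 1; the cause was not tested. The difference in genes detected was 31 with detection from 5 counts (exact permutation p = 0.976) and 391 to 1204 without 1 library, and without Jack replicate 2 it passed the exact permutation test (1204, p = 0.022). Genes detected in 1 cultivar and near 0 in the other numbered 179 (Jack) and 44 (Mustang) under stricter limits and 1423 and 273 under looser ones, and 606 to 932 and 95 to 96 without 1 Jack library, with 932 without replicate 2. With total-count scaling they numbered 386 and 128. In transgenic leaves 105 of the 561 genes met the same limits, and 305 without the 2 libraries that stood apart, which were singled out on these genes. Other scalings, filters and tools gave 15396 to 21822 calls for Jack against the Mustang mean. The 4 named genes were called in each of the 24 alternatives run for them. With a replicate block the same comparison gave 14381 calls, 8526 against both families and 99 for the interaction. Libraries of the same replicate number in different groups were also correlated, on their deviations from the group means of log2 CPM. Of 12 such correlations, 3 exceeded 0.1 (range -0.462 to 0.364). In 3 of the 12 the best match had the same number, each time replicate 2. These values do not settle whether the numbers pair the libraries. The depth limits calls among genes under 1 CPM.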
